A study of Gallus gallus with 12 samples.

Results

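The extracellular matrix and integrin genes measured in chick neural tube cells were taken by gene symbol: every probe set whose platform annotation symbol starts with COL, LAMA, LAMB, LAMC, ITGA, ITGB or ADAMTS followed by a digit, together with FN1, POSTN, TNC, VCAN, NID1, NID2, HSPG2, AGRN, SPARC, FBN1, FBN2 and THBS1. The rule found 288 of 37693 chicken probe sets, and these stand for 100 of 13008 named genes. The genes comprise 9 fibrillar collagens, 8 collagens of basement membranes, 24 other collagens, 11 laminin chains, a group of 4 with the nidogens, perlecan and agrin, 8 matrix glycoproteins, 15 integrin subunits and 17 ADAMTS proteases. The remaining 4 symbols (COL4A3BP, ITGB1BP1, ITGB1BP3 and ITGB3BP) are binding proteins caught by their prefix, which leaves 96 matrix, integrin and protease genes.

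The neural tubes of chick embryos were electroporated in the egg, and GFP-positive cells were sorted 6 h later. The Hamburger-Hamilton stage is given as 10 for the electroporation and as 11 in the sample labels. The NEUROG2 group received a vector that expresses the proneural transcription factor NEUROG2 together with GFP, the NEUROG2AQ group a vector for the form named NEUROG2AQ together with GFP, and the control group the GFP vector pGIG-GFP. The cells of all 3 groups were thus electroporated and sorted for GFP alike. The labels give NEUROG2AQ only by name. In published work on proneural factors, AQ stands for a change in the basic region that binds DNA, and NEUROG2AQ is used as a form impaired in DNA binding. Each group had 4 replicate arrays. Each array was made from 50 ng of total RNA of sorted cells from the pooled neural tubes of 20 embryos, so that a value is an average over many embryos and over every cell type in the sort.

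The extracellular matrix of the early neural tube is mostly a basement membrane around the outer, basal face of the neuroepithelium. Laminins, each a trimer of an alpha, a beta and a gamma chain, and type IV collagen form its networks, which nidogens, perlecan and agrin link to each other. Integrins, which pair an alpha with a beta subunit, tie the basal ends of the progenitors to laminin and fibronectin. NEUROG2 drives progenitors towards neuronal differentiation, during which a cell leaves the ventricular zone. Fibrillar collagens, periostin and collagen VI are better known from mesenchyme than from neuroepithelium.

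Values are log2 signals normalised by the authors with RMA. Signals of different probe sets have no common scale, so each gene is compared only with itself across groups. Where a gene has several probe sets, the one with the highest mean signal over all arrays represents it. Differences are given as a log2 change ± standard error (SE) from a limma fit over the 12 arrays, with p-values adjusted over the 37693 probe sets and a threshold of 0.05. Array medians lay between 2.81 and 2.90. Of the 100 genes, 27 had means below 2.81 in each of the 3 groups and are called dim here, since a signal of that size says little about whether a gene is expressed. In a pool of sorted cells, fewer cells of a type and less RNA per cell cannot be told apart.

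Groups are named as labelled. The array's own NEUROG2 probe set read 3.69 to 4.10 on the NEUROG2 arrays, 4.56 to 4.77 on the NEUROG2AQ arrays and 5.28 to 6.07 on the control arrays, so it was lowest where the vector carries NEUROG2. Whether that probe set reads the introduced RNA is not given in the sources used here, and it therefore does not check the labels.

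The 10 measured neural tube markers (of 11 listed) were all above every array median. Their mean signal was 7.56 to 7.82 in NEUROG2, 7.90 to 7.96 in NEUROG2AQ and 8.31 to 8.47 in control arrays, and 6 of the 10 fell in NEUROG2 cells against control cells, beside 5.37% of all 13008 named genes that were called lower in this comparison. The neural crest list had a mean signal of 5.65 to 6.00 in NEUROG2, 6.33 to 6.59 in NEUROG2AQ and 6.27 to 6.67 in control arrays, and 5 of its 10 genes fell, beside the same 5.37%. Of the 13 measured somite and mesenchyme markers none passed the test in NEUROG2 cells against control cells, and only 4 of them were above every array median. Of the 13, 1 had an unadjusted p under 0.05, beside 23.9% of all genes. Their changes were negative in 11 and positive in 2, with a median of -0.24. The median SE was 0.17, beside 0.13 over all genes, so the missed calls do not show that these markers stayed level. Control replicate 1 stood apart from its group. It held the highest control value for 11 of those 13 somite markers, with a list mean of 3.77 against 2.85 to 3.22 on the other control arrays. It also held the highest control value for 42 of the 100 matrix and integrin genes, beside 19, 22 and 17 for control replicates 2, 3 and 4. The same share over all genes was not computed, so the 42 is not read as particular to the matrix and integrin genes.

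**Figure D1:**
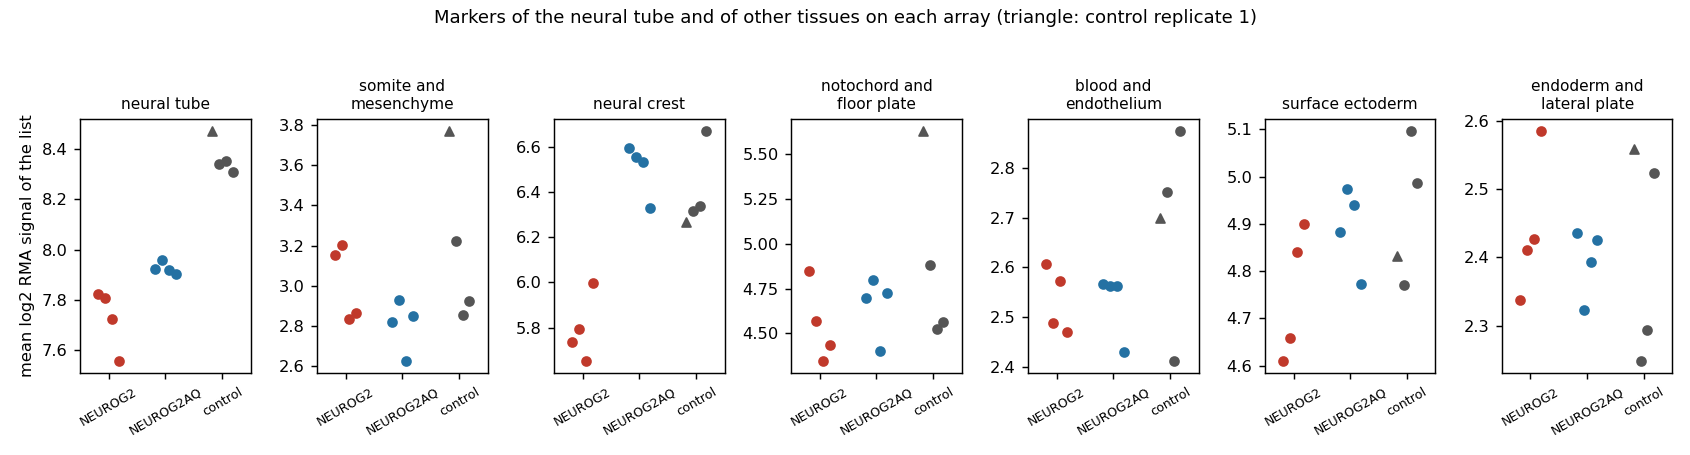
Mean log2 RMA signal of each marker list on each of the 12 arrays, by group, 1 point per array; the triangle is control replicate 1. The y axes differ between panels: the neural tube list is lowest in NEUROG2 arrays (7.56 to 7.82), and control replicate 1 has the highest somite and mesenchyme value (3.77).

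NEUROG2 cells had higher signal than control cells for secreted matrix genes that include periostin, COL6A1 and COL6A3 of collagen VI and SPARC, and for the protease ADAMTS5. They had lower signal for the type IV collagen chain COL4A1 and for the integrin subunit ITGA6. These calls of COL4A1 and ITGA6 were each lost in 4 of 22 alternative settings, and that of ADAMTS5 in 2. Neither COL4A1 nor ITGA6 passed against NEUROG2AQ cells (adjusted p = 0.386 and 0.119). Of the 100 genes, 14 passed the threshold in NEUROG2 against control: 10 rose and 4 fell. Over all 13008 named genes the share that passed was 10.6%, with 5.21% higher and 5.37% lower. The 14 of 100 is thus close to the background, while the 10 that rose against the 4 that fell is a more one-sided split than that of all genes, a description that was not tested. The median log2 change of the 100 genes was 0.05, beside 0.01 over all genes. In 20 of the 100 genes the 4 NEUROG2 arrays did not overlap the 4 control arrays, beside 15.9% of all genes.

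In NEUROG2AQ cells none of the 100 genes passed against control cells, where 0.108% of all genes did (14 genes), and 15 of the 100 had an unadjusted p under 0.05, beside 7.98% of all genes. Set against NEUROG2AQ cells, NEUROG2 cells differed in 14 genes, 13 of them higher and 1 lower, beside a background of 9.69% (5.55% higher and 4.14% lower). The arrays of NEUROG2 and NEUROG2AQ did not overlap in 19 of the 100 genes, beside 18.7% of all genes. Every comparison of NEUROG2 or NEUROG2AQ with control uses the same 4 control arrays, so their values below are set side by side and not counted as separate evidence.

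**Figure D2:**
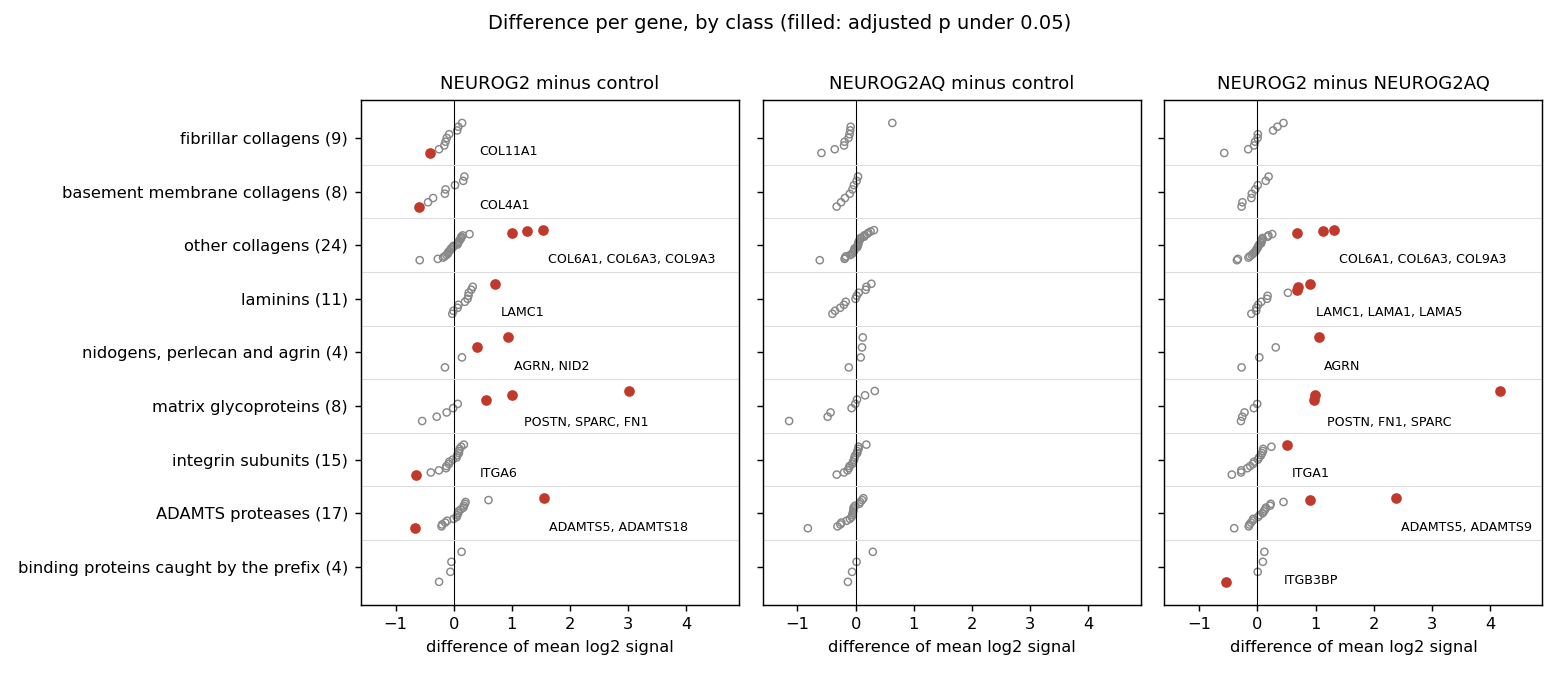
Difference of mean log2 signal for each of the 100 genes, by class, in NEUROG2 minus control, NEUROG2AQ minus control and NEUROG2 minus NEUROG2AQ; filled points passed the threshold of 0.05 on the adjusted p and are named from the largest value down. The middle panel holds no filled point, and the matrix glycoprotein POSTN lies farthest right in the outer panels, at 3.02 and 4.16.

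Among the 8 matrix glycoproteins, 3 rose in NEUROG2 cells against control cells and none fell, a share of 37.5% beside 10.6% of all named genes. Periostin (POSTN), a matricellular protein that binds integrins and collagen, gave 7.12, 7.69, 7.46 and 7.20 on the NEUROG2 arrays, 3.40, 4.0, 2.65 and 2.76 on the NEUROG2AQ arrays and 4.71, 4.78, 3.44 and 4.45 on the control arrays. The NEUROG2 arrays were far above all others, and the NEUROG2AQ arrays lay mostly below the control arrays with some overlap. The log2 change was 3.02 ± 0.30 in NEUROG2 against control, an 8.11-fold higher signal (95% interval 2.38 to 3.66 in log2, adjusted p = 1.15e-05). NEUROG2AQ against control gave -1.14 ± 0.30 (adjusted p = 0.323), and NEUROG2 against NEUROG2AQ gave 4.16 ± 0.30, the largest difference of any of the 100 genes.

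SPARC (osteonectin), a secreted collagen-binding glycoprotein, read 8.10, 8.31, 8.49 and 8.33 in NEUROG2, 7.35, 7.41, 7.25 and 7.34 in NEUROG2AQ and 7.54, 7.33, 7.14 and 7.25 in control arrays. Its NEUROG2 arrays were all above both other groups, which overlapped each other closely. The change was 0.99 ± 0.11 against control (adjusted p = 2.98e-05) and 0.97 ± 0.11 against NEUROG2AQ (adjusted p = 3.24e-05), while NEUROG2AQ against control gave 0.02 with a 95% interval of -0.21 to 0.26.

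Fibronectin (FN1), the main ligand of several integrins and a strongly signalled gene here, gave 10.29, 10.36, 10.47 and 10.42 in NEUROG2, 9.51, 9.63, 9.37 and 9.10 in NEUROG2AQ and 10.05, 9.83, 9.65 and 9.80 in control arrays. The 3 groups did not overlap, with NEUROG2 highest and NEUROG2AQ lowest. Only the differences that involve NEUROG2 passed: 0.55 ± 0.12 against control (adjusted p = 0.0101) and 0.98 ± 0.12 against NEUROG2AQ (adjusted p = 7.55e-05), beside -0.43 ± 0.12 for NEUROG2AQ against control (adjusted p = 0.376). With the mean of the 8 FN1 probe sets in place of the brightest, NEUROG2 against control gave 0.32 and an adjusted p of 0.0503. The other glycoproteins did not pass. VCAN (versican, a large proteoglycan that keeps migrating neural crest cells out of its territory) gave -0.54 ± 0.24. FBN2 and the dim FBN1 (fibrillins, microfibril proteins) gave -0.12 and -0.29, THBS1 (thrombospondin 1) 0.07, and the dim TNC (tenascin C) -0.01. VCAN depended on control replicate 1: its control arrays read 6.50, 7.36, 7.82 and 7.31, and without replicate 1 the NEUROG2 change was -0.79 (adjusted p = 0.0178). VCAN passed in 2 of 22 alternative settings, both without that array, and its highest adjusted p among the 22 was 0.527.

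Among the components that build the basement membrane, 1 of 11 laminin chains and 2 of the 4 linkers rose in NEUROG2 cells and none fell. The laminin share of 9.09% was close to the 10.6% of all named genes, and the linker share was 50%. The laminin gamma 1 chain (LAMC1), part of most laminin trimers, read 9.37, 9.37, 9.39 and 9.51 in NEUROG2, 8.53, 8.51, 8.55 and 8.41 in NEUROG2AQ and 8.89, 8.65, 8.57 and 8.70 in control arrays. No group overlapped another. The change was 0.71 ± 0.09 against control (adjusted p = 0.000178) and 0.91 ± 0.09 against NEUROG2AQ (adjusted p = 1.35e-05), and NEUROG2AQ against control gave -0.20 ± 0.09 (adjusted p = 0.723).

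No other laminin chain passed against control cells. LAMA5, the alpha chain of laminins of many mature basement membranes, gave 8.55, 8.54, 8.58 and 8.71 in NEUROG2, 7.91, 7.94, 7.92 and 7.89 in NEUROG2AQ and 8.51, 8.24, 8.09 and 8.23 in control arrays, again with no overlap. It passed in NEUROG2 against NEUROG2AQ alone (0.68 ± 0.10, adjusted p = 0.000367), with 0.33 ± 0.10 in NEUROG2 against control (adjusted p = 0.0659) and -0.35 ± 0.10 in NEUROG2AQ against control (adjusted p = 0.375). Without control replicate 1 its NEUROG2 change was 0.41 and passed (adjusted p = 0.0113). LAMA5 passed against control in 5 of 22 alternative settings, and its highest adjusted p among the 22 was 0.188.

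LAMA1, the alpha chain of the earliest embryonic laminin, also passed in NEUROG2 against NEUROG2AQ alone (0.70 ± 0.17, adjusted p = 0.0194). It gave 0.30 ± 0.17 in NEUROG2 against control (adjusted p = 0.403) and -0.40 ± 0.17 in NEUROG2AQ against control (adjusted p = 0.678). Unlike those of LAMA5, its control arrays (5.64 to 6.10) overlapped both the NEUROG2 arrays (5.97 to 6.33) and the NEUROG2AQ arrays (4.97 to 5.83). Its call against NEUROG2AQ was lost in 5 of 22 alternative settings: with the mean of its 5 probe sets (0.22, adjusted p = 0.318), without NEUROG2 replicate 1 (0.66, adjusted p = 0.0599) or 2 (0.64, adjusted p = 0.0631) and without NEUROG2AQ replicate 1 (0.65, adjusted p = 0.0684) or 4 (0.54, adjusted p = 0.0509). LAMB1, the beta 1 chain, averaged 8.91 in NEUROG2, 8.93 in NEUROG2AQ and 8.93 in control arrays, and the 95% interval of its NEUROG2 change was -0.27 to 0.22.

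Agrin (AGRN), a heparan sulfate proteoglycan that binds laminin and gathers acetylcholine receptors at the neuromuscular junction, read 7.09, 7.17, 7.08 and 7.01 in NEUROG2, 6.17, 5.76, 6.16 and 6.06 in NEUROG2AQ and 6.36, 6.17, 5.95 and 6.13 in control arrays. The NEUROG2 arrays lay above every other array, and the other groups overlapped. The change was 0.94 ± 0.11 against control (adjusted p = 8.41e-05) and 1.05 ± 0.11 against NEUROG2AQ (adjusted p = 2.35e-05).

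NID2 (nidogen 2) had a small rise, with means of 6.20 ± 0.04 in NEUROG2, 5.88 ± 0.07 in NEUROG2AQ and 5.80 ± 0.18 in control arrays (SD, n = 4 each). Its change against control was 0.40 ± 0.10 (adjusted p = 0.0238), which passed by a narrow margin and was lost in 6 of 22 alternative settings, and against NEUROG2AQ it was 0.31 ± 0.10 (adjusted p = 0.0897). NID1 (nidogen 1) gave -0.15 ± 0.17 and HSPG2 (perlecan) 0.14 ± 0.14 against control, and neither passed.

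Of the type IV collagens, which form the other network of the basement membrane, COL4A1 fell in NEUROG2 cells. It read 5.56, 5.58, 5.38 and 5.48 in NEUROG2, 5.62, 5.92, 6.18 and 5.39 in NEUROG2AQ and 6.04, 6.02, 6.32 and 6.02 in control arrays. The NEUROG2 arrays were below all control arrays, and the NEUROG2AQ arrays spread over both. The change was -0.60 ± 0.14 in NEUROG2 against control (adjusted p = 0.0189), with -0.33 in NEUROG2AQ against control (adjusted p = 0.712) and -0.27 in NEUROG2 against NEUROG2AQ (adjusted p = 0.386). The call rests on 1 of 3 COL4A1 probe sets, since the others were dim, and it was lost without control replicate 3 (-0.53, adjusted p = 0.0614) and without NEUROG2 replicate 3 (-0.56, adjusted p = 0.0665) or 4 (-0.60, adjusted p = 0.0534).

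COL4A2, the partner of COL4A1 in the main type IV trimer and its neighbour in the gene order of assembly GRCg7b, gave means of 7.45 ± 0.22 in NEUROG2, 7.71 ± 0.27 in NEUROG2AQ and 7.90 ± 0.17 in control arrays (SD, n = 4 each). The 4 NEUROG2 arrays lay below the 4 control arrays, and the change of -0.44 ± 0.15 did not pass (adjusted p = 0.0968). COL4A5, chosen after its values were seen, also had NEUROG2 arrays below all control arrays, at -0.36 ± 0.10 (adjusted p = 0.0509). With the dim COL4A4 (means 1.49 in NEUROG2, 1.59 in NEUROG2AQ and 1.65 in control arrays, adjusted p = 0.53 in NEUROG2 against control), 4 of the 8 basement membrane collagens had NEUROG2 arrays below all control arrays, beside 15.9% of all genes whose arrays did not overlap in either direction, and of these 4 only COL4A1 passed. COL18A1, whose C-terminal fragment is endostatin, gave -0.14 with an interval of -0.38 to 0.10.

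Collagen VI is a beaded-filament collagen made of 3 different chains that lies next to basement membranes. Of its 4 measured chains COL6A1 and COL6A3 rose in NEUROG2 cells, while COL6A2 and the dim COL6A6 did not pass by their brightest probe set. COL6A1 read 4.95, 5.04, 4.96 and 4.58 in NEUROG2, 3.59, 3.27, 3.87 and 3.55 in NEUROG2AQ and 3.41, 2.99, 3.69 and 3.31 in control arrays. COL6A3 read 4.73, 5.38, 5.63 and 5.02 in NEUROG2, 3.99, 3.92, 3.99 and 4.39 in NEUROG2AQ and 4.26, 3.82, 3.75 and 3.87 in control arrays. For both chains the NEUROG2 arrays stood above all others, and NEUROG2AQ and control arrays overlapped.

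Against control the changes were 1.53 ± 0.16 for COL6A1 (adjusted p = 1.55e-05) and 1.27 ± 0.18 for COL6A3 (adjusted p = 0.000288). Against NEUROG2AQ they were 1.31 ± 0.16 for COL6A1 (adjusted p = 5.9e-05) and 1.12 ± 0.18 for COL6A3 (adjusted p = 0.000816). NEUROG2AQ against control gave 0.22 and 0.15. The third chain, COL6A2, which neighbours COL6A1 in GRCg7b, has 2 probe sets that disagreed. Its brighter one gave -0.16 (adjusted p = 0.604), and the other gave 0.94 ± 0.14 in NEUROG2 against control (means 4.30 in NEUROG2, 3.66 in NEUROG2AQ and 3.37 in control arrays, adjusted p = 0.00048).

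COL9A3, a chain of the fibril-associated collagen IX best known from cartilage and embryonic notochord sheath, read 5.12, 5.35, 5.53 and 5.77 in NEUROG2, 4.77, 5.04, 4.68 and 4.57 in NEUROG2AQ and 4.73, 4.57, 3.85 and 4.65 in control arrays. The NEUROG2 arrays lay above all others. The change was 0.99 ± 0.19 against control (adjusted p = 0.00309) and 0.68 ± 0.19 against NEUROG2AQ (adjusted p = 0.0405), and the second of these was lost in 10 of 22 alternative settings. The chains that COL9A3 combines with, COL9A1 and COL9A2, did not pass, and both were dim. The other 21 collagens of this class did not pass by their brightest probe set, although a second probe set of COL23A1, a transmembrane collagen, rose by 0.94 ± 0.20 (means 6.27 in NEUROG2, 4.80 in NEUROG2AQ and 5.33 in control arrays, adjusted p = 0.00876).

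Of the 9 fibrillar collagens, which form the thick fibres of mesenchymal matrix, none rose in NEUROG2 cells and COL11A1 fell. This share of 11.1% was close to the 10.6% of all named genes, and the median log2 change of the class was -0.12. COL11A1 averaged 5.18 ± 0.15 in NEUROG2, 5.22 ± 0.16 in NEUROG2AQ and 5.58 ± 0.16 in control arrays (SD, n = 4 each), and its change of -0.40 ± 0.11 stood at an adjusted p of 0.0497 and was lost in 15 of 22 alternative settings. NEUROG2AQ against control was nearly as large for this gene (-0.36 ± 0.11, adjusted p = 0.468), and NEUROG2 against NEUROG2AQ gave -0.04 with an interval of -0.29 to 0.20. COL1A2 (collagen I) gave -0.16 with an interval of -0.44 to 0.11, and COL2A1 (collagen II, made by notochord and neural tube before cartilage) gave -0.25 with an interval of -0.50 to -0.01 and an adjusted p of 0.276.

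Control replicate 1 had the highest control value for 6 of the 9 fibrillar collagens, again without a share over all genes to set beside it. It read 6.28 for COL1A1, singled out after its values were seen, against 4.55 to 4.91 on the other control arrays, and 8.75 for COL2A1, against 8.25 to 8.37. That array also had the highest somite list mean, given above, and the highest notochord and floor plate list mean (5.63, against 4.52 to 4.88 on the other control arrays). The part of other tissue in these values was not tested. Without control replicate 1, 16 of the 100 genes passed in NEUROG2 against control, 11 higher and 5 lower, beside 10 higher and 4 lower with all arrays. Calls over all 37693 probe sets also rose, to 3253 without that array from 2515 with all arrays.

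**Figure D3:**
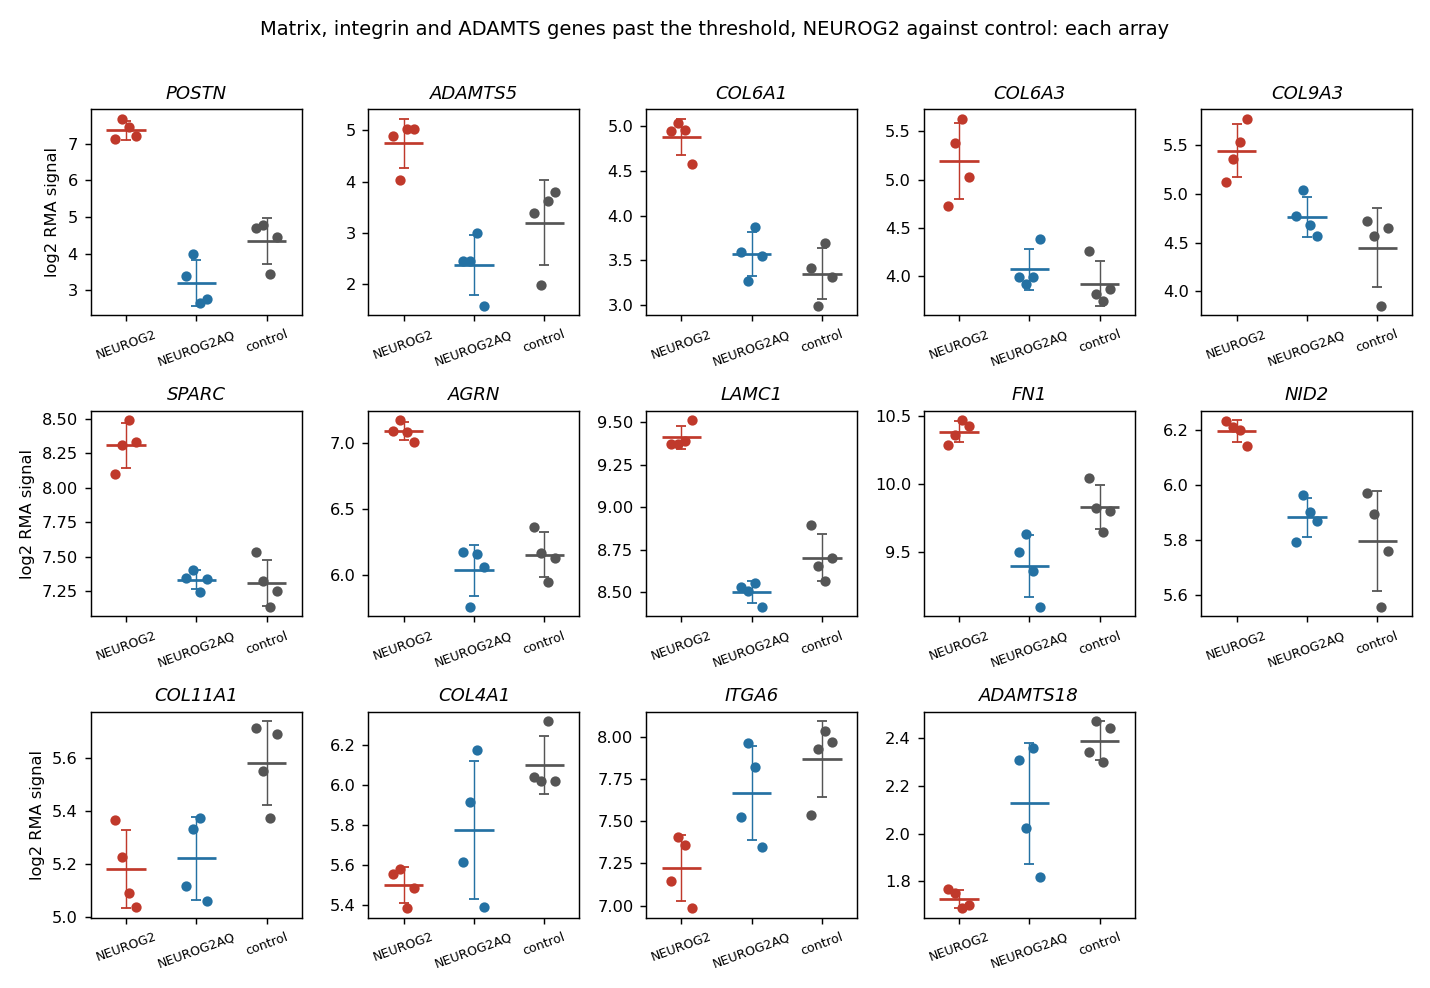
Log2 RMA signal on each array of the 14 genes past the threshold in NEUROG2 against control, 4 points per group in replicate order, with the mean (line) and SD (bar) of each group. Each panel has its own y axis, which does not start at 0; in all 14 panels the NEUROG2 arrays do not overlap the control arrays, and for LAMC1 and FN1 the NEUROG2AQ arrays also lie below all control arrays.

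By their brightest probe sets, none of the 15 integrin subunits rose in NEUROG2 cells and ITGA6 fell, a share of 6.67% beside 10.6% of all named genes. By other, dim probe sets, ITGA9 rose and ITGA4 fell. ITGA6, the alpha subunit of laminin receptors of epithelial and neural progenitor cells, read 7.15, 7.40, 7.36 and 6.98 in NEUROG2, 7.53, 7.96, 7.82 and 7.35 in NEUROG2AQ and 7.53, 7.92, 8.03 and 7.97 in control arrays. The NEUROG2 arrays were below all control arrays and overlapped the NEUROG2AQ arrays. The change was -0.64 ± 0.15 against control (adjusted p = 0.0164) and -0.44 ± 0.15 against NEUROG2AQ (adjusted p = 0.119). It was lost without control replicate 2 (adjusted p = 0.0503), 3 (adjusted p = 0.0512) or 4 (adjusted p = 0.0517) and without NEUROG2 replicate 4 (adjusted p = 0.0654), at changes between -0.56 and -0.62.

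ITGB1, the beta 1 subunit that pairs with ITGA6 and most other alpha subunits, averaged 8.76 in NEUROG2, 8.74 in NEUROG2AQ and 8.84 in control arrays, and its NEUROG2 change had an interval of -0.40 to 0.24. ITGB3 and ITGB5, beta subunits of receptors for RGD-containing matrix proteins such as vitronectin, gave 0.06 and -0.08. ITGA4, a fibronectin receptor subunit of neural crest cells, read 6.49, 6.91, 7.05 and 6.82 in NEUROG2, 7.22, 7.09, 7.30 and 6.78 in NEUROG2AQ and 6.32, 7.32, 7.68 and 7.54 in control arrays. With all arrays the change was -0.39 ± 0.24 (adjusted p = 0.44), and without control replicate 1, the low one, it was -0.69 and passed (adjusted p = 0.00849). With all arrays and the mean of its 3 probe sets, ITGA4 gave -0.60 and also passed (adjusted p = 0.0428). It passed in 3 of 22 alternative settings, and its highest adjusted p among the 22 was 0.730.

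Neural crest markers fell in the same NEUROG2 arrays, as given above (5 of 10, among them SOX10 at -1.50 ± 0.16 and LMO4 at -0.88 ± 0.12). These 2 are examples. The log2 changes of the 10 ran from -1.50 to 0.36, with 9 negative and 1 positive. The part of neural crest cells in the ITGA4, ITGA6 and VCAN values was not tested. ITGA1, a collagen receptor subunit, was higher in NEUROG2 than in NEUROG2AQ cells (0.50 ± 0.13, adjusted p = 0.026), but it was dim in all groups (means 1.74 in NEUROG2, 1.24 in NEUROG2AQ and 1.57 in control arrays) and the call was lost in 7 of 21 settings. ITGA5, the other main fibronectin receptor subunit, was not analysed here.

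Of the 17 ADAMTS proteases, secreted metalloproteases that cleave proteoglycans and procollagens among other substrates, 1 rose and 1 fell. This share of 11.8% was close to the 10.6% of all named genes. ADAMTS5, which cleaves aggrecan and versican, read 4.89, 4.04, 5.04 and 5.03 in NEUROG2, 2.46, 2.46, 3.01 and 1.58 in NEUROG2AQ and 3.39, 1.98, 3.62 and 3.81 in control arrays. The NEUROG2 arrays were above all others, by a narrow margin over the highest control array, and replicate 2 was the lowest array of the NEUROG2 and the control group. The change was 1.55 ± 0.37 against control (adjusted p = 0.0166), 2.37 ± 0.37 against NEUROG2AQ (adjusted p = 0.000605) and -0.82 ± 0.37 for NEUROG2AQ against control (adjusted p = 0.713). Without NEUROG2 replicate 3 the change against control was 1.46 (adjusted p = 0.0617), and without replicate 4 it was also 1.46 (adjusted p = 0.0608).

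ADAMTS9, a versican-cleaving protease, was higher in NEUROG2 than in NEUROG2AQ cells (0.91 ± 0.20, adjusted p = 0.0116), and gave 0.60 ± 0.20 against control (adjusted p = 0.107). With the mean of its 9 probe sets the difference from NEUROG2AQ was 0.33 and did not pass (adjusted p = 0.0724). Another ADAMTS9 probe set passed against control at 1.01 ± 0.20 (adjusted p = 0.00565), as did a probe set of ADAMTS15 at 0.46 ± 0.10 (adjusted p = 0.0109). ADAMTS18 read 1.77, 1.75, 1.69 and 1.70 in NEUROG2, 2.31, 2.02, 2.36 and 1.82 in NEUROG2AQ and 2.34, 2.47, 2.30 and 2.44 in control arrays, all of them below every array median. The arrays of NEUROG2 and control did not overlap (-0.66 ± 0.12, adjusted p = 0.00181), but the gene's other probe set gave 0.08, and a difference between dim signals of this size cannot be read as a level of RNA. ADAMTS1, the neighbour of ADAMTS5 in GRCg7b, gave 0.17 with an interval of -0.04 to 0.38.

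The single gene lower in NEUROG2 than in NEUROG2AQ cells was ITGB3BP, a nuclear protein of the centromere that is no integrin (-0.55 ± 0.13, adjusted p = 0.0161, against -0.25 ± 0.13 for NEUROG2 against control). This call was lost in 4 of 22 alternative settings: with the mean of its 2 probe sets (-0.27, adjusted p = 0.193), without NEUROG2 replicate 3 (-0.49, adjusted p = 0.0637) and without NEUROG2AQ replicate 2 (-0.53, adjusted p = 0.0501) or 3 (-0.52, adjusted p = 0.0536). Without the 4 binding proteins, the 96 other genes gave 10 higher and 4 lower in NEUROG2 against control and 13 higher with none lower in NEUROG2 against NEUROG2AQ. The absence of lower genes depended on the setting. ITGA6 passed as lower against NEUROG2AQ in 3 of 22 alternative settings and the dim ADAMTS18 in 5 of 21. Without NEUROG2AQ replicate 4 they gave -0.55 (adjusted p = 0.0495) and -0.50 (adjusted p = 0.00984).

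Several probe sets measured 79 of the 100 genes, and they bear on how far each call rests on 1 of them. Over the 288 probe sets, 23 rose and 6 fell in NEUROG2 against control, beside 6.67% called among all probe sets (3.3% higher and 3.38% lower). In NEUROG2 against NEUROG2AQ 26 rose and 1 fell, beside 6.06% (3.67% higher and 2.39% lower), and in NEUROG2AQ against control none of the 288 passed, beside 0.0663%. No gene had probe sets called in opposite directions. All 3 SPARC probe sets rose, at 0.88 to 1.14, and so did both POSTN probe sets, at 1.91 and 3.02. LAMC1 rose in 2 of 3 probe sets, COL6A1 in 2 of 3, COL9A3 in 2 of 4 and FN1 in 3 of 8. AGRN rose in 1 of 3 and COL6A3 in 1 of 2, and their other probe sets were dim, at -0.01 and 0.07 for AGRN and 0.04 for COL6A3. ITGA6 fell in 1 of 2 (the other gave -0.50, adjusted p = 0.214) and COL11A1 in 1 of 5. With the probe sets of each gene averaged, COL11A1 did not pass (-0.23, adjusted p = 0.148), nor did FN1, as given above. Genes whose call held at a smaller change include AGRN (0.33, adjusted p = 0.0181), COL9A3 (0.33, adjusted p = 0.0442), COL6A3 (0.66, adjusted p = 0.00193) and COL6A1 (0.98). POSTN, LAMC1 and ITGA6 also kept their calls at smaller changes. A further 7 genes were called only by a probe set other than the brightest: COL6A2, COL23A1, ADAMTS9 and ADAMTS15, described above, and ITGA4, ITGA9 and ITGB1BP3 by dim probe sets. Some FN1 and SPARC probe sets carry the suffix that marks probes shared between transcripts, and their signals may overlap.

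**Figure D4:**
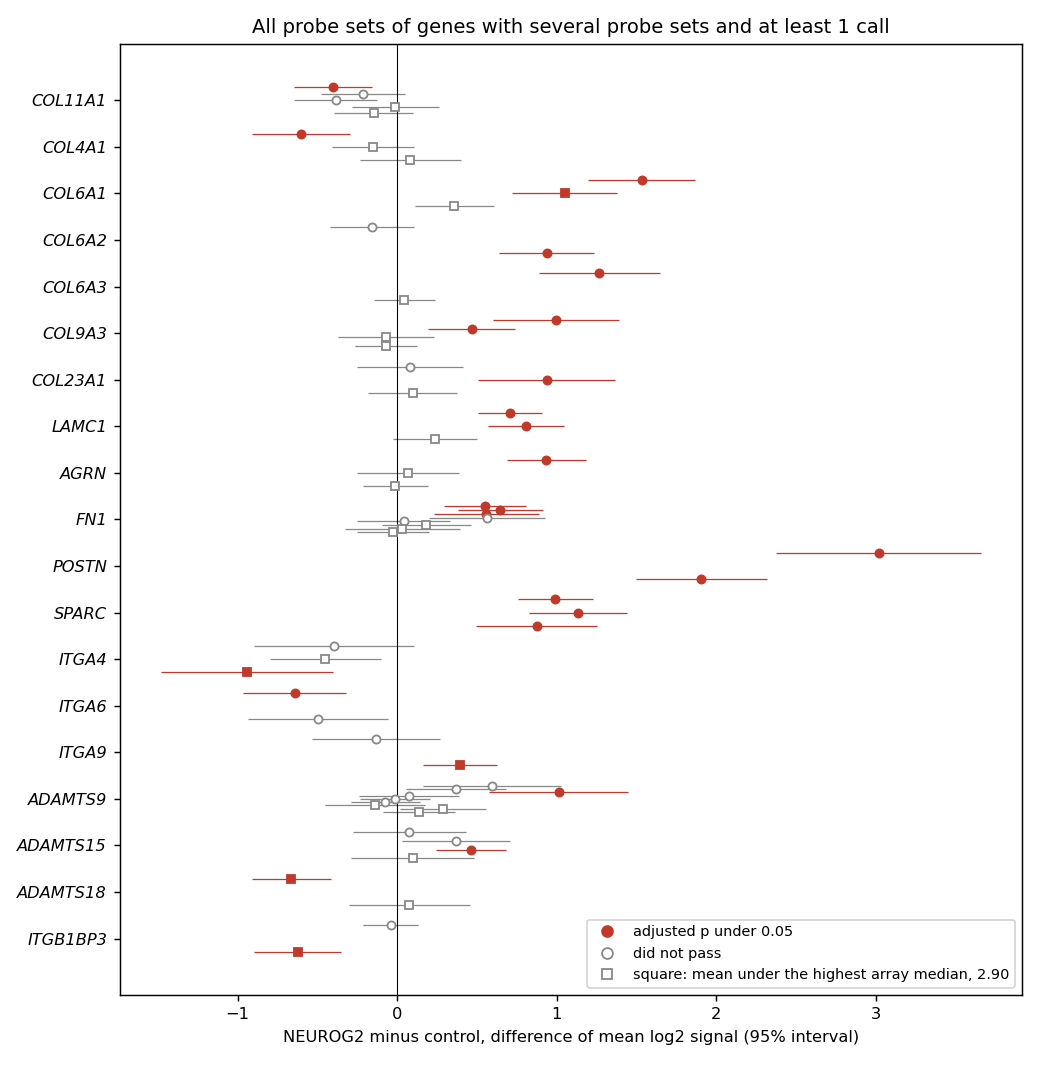
NEUROG2 minus control for every probe set of the genes that have several and at least 1 call, as the difference of mean log2 signal with its 95% interval; circles are probe sets brighter on average than the highest array median (2.90) and squares are dimmer. Both POSTN and all 3 SPARC probe sets lie to the right of 0 and passed, while COL6A2, COL23A1 and ADAMTS18 have probe sets that disagree.

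Genes that process the matrix were listed apart from the 100. Of 31 measured enzymes and chaperones of matrix processing and crosslinking (of 41 listed), 6 rose and 2 fell in NEUROG2 cells against control cells. That is a share of 25.8% beside the background of 10.6%, with a median log2 change of 0.04. In NEUROG2 against NEUROG2AQ, 3 of the 31 were higher and 1 lower, a share of 12.9% beside the background of 9.69%. MMP2 (gelatinase A, which cleaves type IV collagen) read 6.69, 6.89, 6.65 and 6.23 in NEUROG2, 4.79, 5.17, 4.37 and 4.79 in NEUROG2AQ and 5.41, 5.61, 4.86 and 4.74 in control arrays. The NEUROG2 arrays stood above all others, with changes of 1.46 ± 0.21 against control (adjusted p = 0.000294) and 1.83 ± 0.21 against NEUROG2AQ (adjusted p = 3.1e-05).

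SERPINH1 (the collagen chaperone HSP47) rose by 1.17 ± 0.22 (adjusted p = 0.00331) and PLOD1 (a lysyl hydroxylase of collagen) by 1.14 ± 0.14 (adjusted p = 7.13e-05). PLOD1 was as different from NEUROG2AQ (1.17 ± 0.14, adjusted p = 4.89e-05), whereas SERPINH1 was not called against NEUROG2AQ (0.64 ± 0.22, adjusted p = 0.124) and gave 0.53 ± 0.22 in NEUROG2AQ against control (adjusted p = 0.67). HAS2, the hyaluronan synthase of early embryos, read 5.38, 5.52, 4.73 and 4.59 in NEUROG2, 5.47, 6.00, 5.78 and 5.22 in NEUROG2AQ and 6.42, 6.24, 6.30 and 6.27 in control arrays. It fell by 1.25 ± 0.20 in NEUROG2 against control (adjusted p = 0.000881). Its NEUROG2AQ arrays also lay below all control arrays, at -0.69 ± 0.20 (adjusted p = 0.409).

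Of 49 measured other matrix proteins and proteoglycans (of 59 listed), 2 rose and 4 fell, a share of 12.2% that is close to the background of 10.6%, with a median log2 change of 0.05. CCN2 (connective tissue growth factor, a matricellular protein) read 7.61, 7.40, 7.15 and 6.98 in NEUROG2, 8.40, 8.72, 8.08 and 8.22 in NEUROG2AQ and 9.31, 9.16, 9.04 and 9.06 in control arrays. The 3 groups were fully separate, with NEUROG2 lowest and NEUROG2AQ between. The change was -1.86 ± 0.15 in NEUROG2 against control (adjusted p = 1.39e-06) and -1.07 ± 0.15 against NEUROG2AQ (adjusted p = 0.000283), and NEUROG2AQ against control gave -0.79 ± 0.15 and did not pass (adjusted p = 0.0903). SMOC2, a calcium-binding relative of SPARC, rose by 0.81 ± 0.21 against control (adjusted p = 0.0287) and by 1.83 ± 0.21 against NEUROG2AQ (adjusted p = 3.85e-05). GPC4 (a glypican) fell by 0.64 ± 0.18 and LTBP1 (which holds latent TGF-beta in the matrix) by 0.60 ± 0.11.

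On the inner side of the integrins, 5 of 32 measured integrin-linked adhesion proteins (of 39 listed) rose and 1 fell, a share of 18.8% beside the background of 10.6% (5.21% higher and 5.37% lower), with a median log2 change of -0.05. CD151, a tetraspanin that associates with laminin-binding integrins, read 6.58, 6.85, 6.84 and 6.33 in NEUROG2, 5.55, 5.43, 5.94 and 5.70 in NEUROG2AQ and 5.90, 5.91, 5.88 and 5.66 in control arrays. It rose by 0.81 ± 0.14 against control (adjusted p = 0.00124) and by 0.99 ± 0.14 against NEUROG2AQ (adjusted p = 0.000201), with NEUROG2 arrays above all others. KANK1, which binds talin at adhesion sites, rose by 0.95 ± 0.20 (adjusted p = 0.00739) and FHL2, a LIM protein of adhesion sites, by 0.83 ± 0.14 from a low signal (adjusted p = 0.00162). NEDD9, an adaptor phosphorylated after integrin binding, fell by 1.54 ± 0.17 (adjusted p = 2.71e-05), with 2.34, 2.15, 1.90 and 2.15 in NEUROG2, 4.22, 3.69, 3.34 and 3.41 in NEUROG2AQ and 3.73, 3.75, 3.45 and 3.77 in control arrays. In NEUROG2AQ against control none of these 3 lists had a called gene.

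A call that was missed does not show that a gene stayed level, and the intervals say how large a change could have gone unseen. Of the 86 genes that did not pass in NEUROG2 against control, 63 had a 95% interval within 0.5 of 0 on the log2 scale and 83 within 1. For NEUROG2AQ against control, 70 of 100 lay within 0.5 and 95 within 1. In 6 of the 100 genes the NEUROG2AQ arrays did not overlap the control arrays, beside 4.64% of all genes. LAMC1, LAMA5 and FN1, described above, were 3 of them, each with NEUROG2AQ lower and NEUROG2 higher than control. The other 3 are named after their values were seen. COL24A1, a fibrillar collagen, was higher in NEUROG2AQ, with 4.15, 4.44, 3.99 and 4.38 in NEUROG2, 4.36, 5.25, 5.03 and 4.61 in NEUROG2AQ and 4.34, 4.30, 4.31 and 3.79 in control arrays. Its NEUROG2AQ change of 0.63 ± 0.18 against control had the highest value among the 100 genes and did not pass (adjusted p = 0.417). The dim ITGA11 and the binding protein gene ITGB1BP3 were lower in NEUROG2AQ, at -0.14 and -0.13 against control.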

How the data were processed

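The deposited table holds 1 log2 signal for every probe set on each array, which the authors made with GCOS, RMA and affy, all named without versions per the submitters' processing notes. The labels call the values log signals; base 2 was inferred from their range of 0.49 to 13.97. The values were used as deposited. Of 38535 probe sets, 37693 with chicken identifiers were tested and 842 others were left out. Genes were named by the platform's annotation (27166 probe sets with 1 symbol, 177 with several, 10350 with none here), and gene neighbours were taken from a RefSeq gene table of assembly GRCg7b. No genome build is given for the array data themselves in the sources used here, so no coordinates are printed.

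One linear model over the 12 arrays (limma 3.58.1 under R 4.3.3, lmFit then eBayes) had group as its only term and 9 residual degrees of freedom, and its two-sided p-values were adjusted by the Benjamini-Hochberg method. The genes named on each array by rule were the 12 past the threshold with the largest change in NEUROG2 against control, and the 6 such in each other comparison. A fixed set of 29 matrix and integrin genes, of which 28 were measured, was given whether or not a gene passed. Other genes past the threshold could be named. Array values printed beyond that rule include those of LAMA5, ITGA4 and VCAN, all of the fixed set. They also include those of COL24A1, outside that set, and the control replicate 1 values of COL1A1 and COL2A1. Of each list of matrix and adhesion genes outside the 100 genes, up to 4 called genes with the largest change were named. The members and lists were chosen with earlier results of these data known. No 2 arrays held identical values. The labels call the replicates biological and number them 1 to 4 in each group. Alternatives were a replicate block, removal of the dimmest 40% of probe sets, other moderation, array weights, fits of 2 groups, 2 other scalings, averaging the probe sets of each gene, current symbols and leaving out arrays. The number of arrays limits the precision. The procedure was tested on simulated data with 200 changed probe sets.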

Additional observations from a re-analysis of the deposited data

Results flagged for a closer look

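In 108 groups of 4 arrays (each named gene in each group), the highest or lowest array was set against the others by Dixon's test at its 95% critical value of 0.829 for the gap over the range. It set 6 arrays apart, where chance sets apart about 1 group in 20. ADAMTS5 was low on NEUROG2 replicate 2, at 4.04 against 4.89 to 5.04 on the other NEUROG2 arrays. COL6A3 was high on NEUROG2AQ replicate 4, at 4.39 against 3.92 to 3.99. LAMC1 was high on NEUROG2 replicate 4, at 9.51 against 9.37 to 9.39, a small distance that stands out because the other arrays lay so close. COL4A1 was high on control replicate 3, at 6.32 against 6.02 to 6.04, and its call in NEUROG2 against control was lost without that array. ITGB5 was low on NEUROG2 replicate 3, at 5.19 against 6.11 to 6.19, and high on NEUROG2AQ replicate 3, at 6.22 against 5.87 to 5.89.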

How the results depend on the processing

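Of the 100 genes, 14 passed in NEUROG2 against control, 10 to 16 with each array left out in turn (10 without NEUROG2 replicate 3 or without NEUROG2 replicate 4) and 13 to 16 in the 10 other settings. None passed in NEUROG2AQ against control in any of the 22 settings, and in NEUROG2 against NEUROG2AQ it was 14 genes, 11 to 15 with an array left out and 11 to 16 otherwise. With an array left out, 10 to 13 genes were higher and 0 to 3 lower in NEUROG2 against NEUROG2AQ. The calls over all 37693 probe sets moved too when an array was left out. They ran from 1771 to 3253 in NEUROG2 against control and from 1744 to 2940 in NEUROG2 against NEUROG2AQ. In both comparisons the lowest count was without NEUROG2 replicate 3 and the highest without control replicate 1. No named gene that passed changed its direction. POSTN, COL6A1, COL6A3, COL9A3, SPARC, AGRN and LAMC1 passed in NEUROG2 against control in each of the 22 settings. When the probe sets of each gene were averaged, ADAMTS18 (-0.29, adjusted p = 0.175) and COL4A1 (-0.22, adjusted p = 0.106) did not pass. Another scaling moved the share of higher calls among all probe sets that passed in NEUROG2 against control (49.4%) to 43.7% with median centring and 55.8% with cyclic loess, while the members gave 10 of 15 and 11 of 14 higher. One setting was chosen after seeing the data: without both control replicate 1 and NEUROG2AQ replicate 4, which stand apart from their groups, 16 genes passed against control, none in NEUROG2AQ against control and 16 in NEUROG2 against NEUROG2AQ. Over all 37693 probe sets that setting gave 3682, 21 and 2957 calls in the same order, beside 2515, 25 and 2286 with all arrays. The deviations of same-numbered NEUROG2 and control arrays correlated at 0.18, 0.23 and 0.13 for replicates 1, 2 and 4 and at -0.02 for replicate 3, and 3 of the 4 NEUROG2 arrays correlated best with their own number; the range was -0.30 to 0.20 between NEUROG2AQ and control and -0.11 to 0.16 between NEUROG2 and NEUROG2AQ. Since not every pair deviated together in any comparison, the numbers were not taken to pair the arrays. With the replicate block, 14, 0 and 12 genes passed in the 3 comparisons in that order, beside 2463, 28 and 2249 of all probe sets. Dim signals limit what can be said of 27 genes.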
